A study of Mus musculus with 3 samples.

Results

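The Hox genes described here are the genes of the epididymis libraries whose deposited symbol is Hox, a cluster letter from a to d and a number. They are 33 of the 23503 genes and take 34 rows, since 2 rows carry the symbol Hoxd4. The choice used names alone and no measured value. RNA of the epididymis of adult male ICR mice was sequenced in 3 libraries, 1 per group. Of 13 mice, 10 were castrated by removal of both testes with the epididymes left in place, and 3 had sham surgery with the testes kept. From day 14 after surgery, 5 castrated mice were given testosterone propionate under the skin at 5 mg/kg in corn oil on 10 consecutive days (Cas+T), and the other 5 were given corn oil (Cas+CO). No injection is recorded for the Sham mice. The labels do not say how many mice a library holds or which epididymal segments it came from, and no segment is assigned to any value here.

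Hox genes encode homeodomain transcription factors and lie in 4 clusters, a to d. Within a cluster their order along the chromosome mirrors the order in which they are used along the body axis, from low-numbered genes at the head end to high-numbered genes at the tail end, and genes of the same number in different clusters are paralogs. In the male tract they are known for setting position along the Wolffian duct, which forms the epididymis and the vas deferens. In mice, loss of Hoxa10 or Hoxa11 gives the distal duct features of a more proximal region.

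Each value is given as TPM, a measure in which counts are divided by gene length and scaled to a common total. TPM keeps no read depth, so no counting error can be attached to a value. With 1 library per group there is no replicate spread and no test: a ratio sets 1 library against another, not 1 condition against another. Log2 ratios are differences of log2(TPM + 1). Members that reached 1 TPM in either library were compared, and higher or lower means at least 2-fold apart on that scale. A gene that reached 1 TPM in only 1 library of a comparison had its direction as deposited set by that minimum. The same holds for genes of the other lists. Because Cas+CO had a median gene level of 5.04 TPM against 2.27 TPM in Sham and 2.83 TPM in Cas+T, each ratio is also given relative to the median ratio of all genes. That median was 0.76 for Cas+CO over Sham, -0.46 for Cas+T over Cas+CO and 0.30 for Cas+T over Sham, all on the log2 scale. Cas+CO enters both of the first comparisons, so their ratios are not independent of each other.

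The sequences before the RefSeq start of 3 neighbouring genes of the d cluster are shown because these genes span the widest range of Cas+CO over Sham ratios in that cluster, from Hoxd8, the lowest, to Hoxd4 and Hoxd3, the highest. They are RefSeq promoter sequences of mouse build GRCm38.p6, plus strand, with CG dinucleotides in capitals. The Hoxd8 stretch is chr2:74704365-74704614 and holds 6 CG dinucleotides in 250 bases. The Hoxd4 stretch is chr2:74721728-74721977 and holds 3 in 250 bases; it lies inside the wider spans that GENCODE M21 gives Hoxd3 and Hoxd4, before a start within them. The Hoxd3 stretch is chr2:74711743-74711926 and holds 11 in 184 bases; it stops before the first annotated exon base at 74711927.
Hoxd8: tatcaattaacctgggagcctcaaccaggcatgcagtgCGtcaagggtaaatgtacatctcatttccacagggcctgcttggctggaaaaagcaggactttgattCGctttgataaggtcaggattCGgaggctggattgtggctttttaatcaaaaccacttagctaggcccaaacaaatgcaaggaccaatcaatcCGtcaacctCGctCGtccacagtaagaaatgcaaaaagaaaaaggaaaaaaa
Hoxd4: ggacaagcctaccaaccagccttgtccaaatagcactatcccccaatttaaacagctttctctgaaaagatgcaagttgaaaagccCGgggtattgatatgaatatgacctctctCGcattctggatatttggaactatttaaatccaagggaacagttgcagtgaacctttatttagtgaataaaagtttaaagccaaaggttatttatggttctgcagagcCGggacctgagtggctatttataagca
Hoxd3: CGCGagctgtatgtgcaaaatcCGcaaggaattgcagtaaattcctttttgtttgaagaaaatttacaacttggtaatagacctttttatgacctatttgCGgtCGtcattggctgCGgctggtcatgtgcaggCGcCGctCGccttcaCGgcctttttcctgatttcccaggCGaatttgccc

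In these 3 stretches the density of CG dinucleotides is highest in Hoxd3 and lowest in Hoxd4. Over the 22 RefSeq promoters of 20 Hox genes, the 250 bases before the start held a median of 12.5 CG dinucleotides (quartiles 7 and 20). Over all 32851 promoters the median was 6 (quartiles 2 and 16).

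Hox transcripts summed to 653 TPM in Sham, 1199 TPM in Cas+CO and 786 TPM in Cas+T, which is 0.0653%, 0.1199% and 0.0786% of all TPM. The number of Hox genes at 1 TPM or more was 21, 26 and 19 in these libraries. The sum was held by the b and d clusters in every library: b took 52.8%, 53.7% and 46.2% and d took 44.9%, 43.1% and 51.9% of it in Sham, Cas+CO and Cas+T. Cluster a took 1.71%, 2.33% and 1.27%, and cluster c took 0.529%, 0.885% and 0.661%. By position in the cluster, paralog groups 5 to 8 held the largest share in each library.

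**Figure D1:**
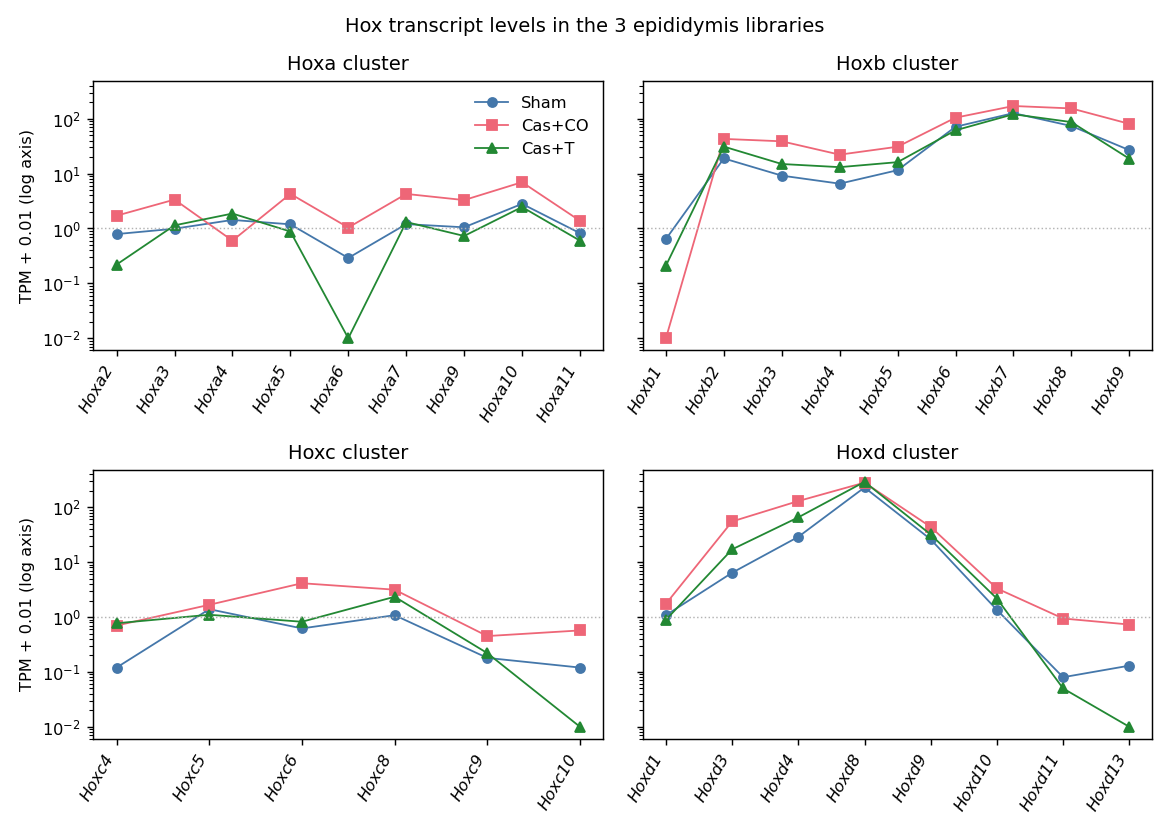
TPM + 0.01 of the Hox genes described, in the Sham, Cas+CO and Cas+T libraries, on a log axis, by cluster and in order of paralog number. Hoxd8 is the highest member in each library (229, 281 and 291 TPM) and Hoxb7 the highest of its cluster (126, 170.4 and 121 TPM).

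Among d-cluster genes, Hoxd8, one of the trunk-patterning genes, was the most abundant Hox transcript of all 3 libraries. It stood at 229 TPM in Sham, 281 TPM in Cas+CO and 291 TPM in Cas+T, and ranked 477, 395 and 421 among all genes. Its log2 ratio for Cas+CO over Sham was 0.29 as deposited and -0.47 relative to all genes, so its direction turned with the scale. Hoxd9, which acts with its paralogs in limb and vertebral patterning, was at 25.98, 43.8 and 31.9 TPM, a log2 ratio of 0.73 for Cas+CO over Sham and -0.03 relative to all genes.

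Hoxd3 and Hoxd4, which pattern the cervical vertebrae in mice, lie on the side of Hoxd8 away from Hoxd9. Hoxd3 (chr2:74711927-74748442, plus strand) was at 6.4 TPM in Sham, 55.1 TPM in Cas+CO and 17.1 TPM in Cas+T. Cas+CO was the highest and Sham the lowest. The TPM ratio of Cas+CO over Sham was 8.61, a log2 ratio of 2.92, and 2.16 relative to all genes, which is the 98.2 percentile of all genes compared. The log2 ratio of Cas+T over Cas+CO was -1.63, or -1.17 relative to all genes, and for Cas+T over Sham it was 1.29, or 0.99 relative.

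Hoxd4 (chr2:74711929-74729160, plus strand) was at 28.9 TPM in Sham, 129.8 TPM in Cas+CO and 65.4 TPM in Cas+T, in the same order as Hoxd3. Its TPM ratio of Cas+CO over Sham was 4.49, a log2 ratio of 2.13, and 1.37 relative to all genes. These are sums over the 2 rows named Hoxd4. The row whose identifier GENCODE M21 holds, ENSMUSG00000101174, was at 11.7, 23.2 and 10.1 TPM, a log2 ratio of 0.94 for Cas+CO over Sham and 0.17 relative to all genes. The other row, ENSMUSG00000115956, was at 17.3, 106.6 and 55.4 TPM, a log2 ratio of 2.56 and 1.80 relative. The call for Hoxd4 rests on that second row, which GENCODE M21 does not place.

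Exons in this stretch of chromosome 2 overlap. In GENCODE M21, Hoxd3 shares 53.1% of its exonic bases with Gm28230 on the same strand, 9.26% with Hoxd4 and 8.28% with Hoxd3os1, an antisense gene. Hoxd4 shares 39.2% with Gm28230, 13.2% with Hoxd3 and 11.8% with Hoxd3os1. How reads were divided among these genes, and whether strand was used, is not given in the sources used here, so the separate levels of Hoxd3 and Hoxd4 are uncertain. Gm28230 was at 7.82, 37.8 and 18.8 TPM in Sham, Cas+CO and Cas+T. Hoxd3, Hoxd4 and Gm28230 summed to 43.1, 222.7 and 101.3 TPM, a TPM ratio of 5.16 for Cas+CO over Sham and a log2 ratio of 1.58 relative to all genes. Hoxd3os1 went the other way, at 45.0, 29.3 and 40.9 TPM. With Hoxd3os1 added, the sums were 88.2, 251.9 and 142.2 TPM, and the relative log2 ratio for Cas+CO over Sham was 0.74, under 2-fold.

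The remaining d-cluster members were low. Hoxd1, which acts in pain-sensing neurons in mice, was at 1.07, 1.73 and 0.88 TPM in Sham, Cas+CO and Cas+T. Hoxd10, a limb-patterning gene, was at 1.34, 3.31 and 2.16 TPM. Hoxd11 and Hoxd13, which shape the limb and the genital tubercle, stayed under 1 TPM in all 3 libraries.

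Set against Hoxd8 within each library, which needs no scaling between libraries, Hoxd3 stood at 2.79%, 19.6% and 5.88% of the Hoxd8 level in Sham, Cas+CO and Cas+T. Hoxd4 stood at 12.6%, 46.1% and 22.5% of it. Hoxd9 moved least, at 11.3%, 15.6% and 11.0%. The low-numbered neighbours of Hoxd8 were thus closer to its level in Cas+CO than in the other libraries. The Hoxd4 percents use the sum of its 2 rows and rest mostly on the row that GENCODE M21 does not place. The exon overlap given above leaves the separate percents of Hoxd3 and Hoxd4 uncertain.

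**Figure D2:**
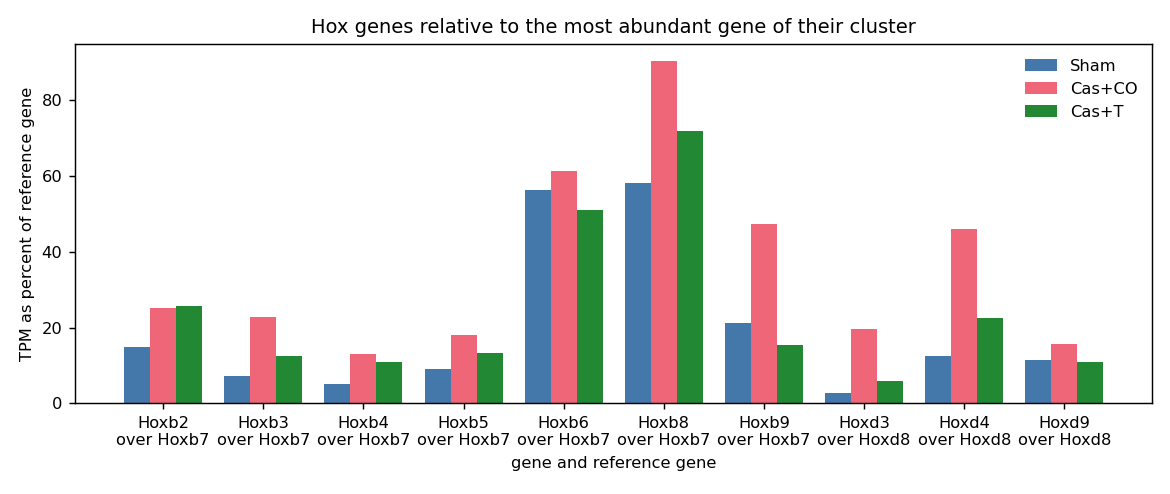
Level of each b- and d-cluster member with a mean of 5 TPM or more as a percent of Hoxb7 or Hoxd8 in the same library. Hoxd3 stands at 2.79%, 19.6% and 5.88% of Hoxd8 in Sham, Cas+CO and Cas+T, and Hoxb9 at 21.2%, 47.3% and 15.5% of Hoxb7.

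In the b cluster (chromosome 11, plus strand) the levels were high through the middle of the cluster. Hoxb7, whose regulatory region is widely used to drive transgenes in the Wolffian duct and ureteric bud, led with 126 TPM in Sham, 170.4 TPM in Cas+CO and 121 TPM in Cas+T. Hoxb8, a trunk-patterning gene that also acts in blood progenitors, was next with 73.7, 154 and 86.8 TPM. Hoxb6, its neighbour on the other side of Hoxb7, was at 71.3, 104 and 61.5 TPM. Their log2 ratios for Cas+CO over Sham were 0.43 for Hoxb7, 1.05 for Hoxb8 and 0.55 for Hoxb6. Relative to all genes they were -0.33, 0.29 and -0.22, so the direction of Hoxb6 and Hoxb7 turned with the scale.

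The low-numbered b members differed more. Hoxb3, which takes part in hindbrain patterning, was at 9.17 TPM in Sham, 38.7 TPM in Cas+CO and 14.9 TPM in Cas+T, a log2 ratio of 1.97 for Cas+CO over Sham and 1.20 relative to all genes. Hoxb4, known for its part in blood stem cell growth, was at 6.54, 22.1 and 13.1 TPM, with ratios of 1.62 and 0.85. Hoxb2, another hindbrain gene, was at 18.9, 42.9 and 31.0 TPM, with ratios of 1.14 and 0.38. Hoxb5, which acts in gut nerve and shoulder development in mice, was at 11.5, 30.9 and 16.2 TPM, with ratios of 1.35 and 0.59. All 4 were highest in Cas+CO and lowest in Sham. Hoxb3 shares 52.9% of its exonic bases with the antisense gene Hoxb3os, itself at 0.50, 1.30 and 0.75 TPM. Their sum gave a relative log2 ratio of 1.18 for Cas+CO over Sham, beside 1.20 for Hoxb3 by itself. Hoxb2 shares 27.3% of its exonic bases with Hoxb3os, and with Hoxb2 added the relative log2 ratio was 0.74, under 2-fold.

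Hoxb9, the highest-numbered b member measured, which specifies ribs in mice, had another order than the low-numbered members. It was at 26.8 TPM in Sham, 80.7 TPM in Cas+CO and 18.7 TPM in Cas+T, with Cas+T below Sham. Hoxb6 and Hoxb7 had this order too. For Cas+CO over Sham the log2 ratio of Hoxb9 was 1.56 and 0.80 relative to all genes. It was -2.05 for Cas+T over Cas+CO, and -1.59 relative to all genes, the lowest among the Hox genes and the 4.92 percentile of all genes compared. Its log2 ratio for Cas+T over Sham was -0.50, or -0.79 relative. Hoxb1, a hindbrain gene, was at 0.63 and 0.20 TPM in Sham and Cas+T and listed at 0 in Cas+CO.

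As a percent of Hoxb7 in the same library, Hoxb3 was at 7.25%, 22.7% and 12.4% in Sham, Cas+CO and Cas+T, and Hoxb9 at 21.2%, 47.3% and 15.5%. Hoxb2 was at 14.9%, 25.1% and 25.7%, so here Cas+T was level with Cas+CO. Hoxb4 was at 5.17%, 13.0% and 10.9%, and Hoxb5 at 9.11%, 18.1% and 13.4%. Hoxb8 was at 58.3%, 90.3% and 72.0%, and Hoxb6 at 56.4%, 61.3% and 50.9%.

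Cluster a (chromosome 6, minus strand) was near the detection minimum. Its highest member in every library was Hoxa10, needed for testis descent and uterine receptivity in mice, at 2.80 TPM in Sham, 6.96 TPM in Cas+CO and 2.45 TPM in Cas+T. The log2 ratio was 1.07 for Cas+CO over Sham (0.30 relative to all genes) and -1.21 for Cas+T over Cas+CO (-0.75 relative). Hoxa11, its partner in duct patterning, was at 0.81, 1.37 and 0.59 TPM, and shares 35.0% of its exonic bases with the antisense gene Hoxa11os. That gene stood at 0.30, 2.78 and 0.36 TPM.

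Hoxa4, a vertebral patterning gene, was the exception in direction. It was at 1.42 TPM in Sham, 0.59 TPM in Cas+CO and 1.86 TPM in Cas+T, a log2 ratio of -0.61 for Cas+CO over Sham and -1.37 relative to all genes. Its ratio for Cas+T over Cas+CO was 0.85 and 1.31 relative. In each of these comparisons it passed the 1 TPM minimum through the higher library alone, which set its direction. All 3 levels are under 2 TPM, where TPM keeps no sign of how many reads lie behind a value.

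The other a members described were each highest in Cas+CO. Hoxa5, needed for lung development, was at 1.18, 4.26 and 0.87 TPM in Sham, Cas+CO and Cas+T. Hoxa7, a vertebral patterning gene, was at 1.19, 4.25 and 1.30 TPM, Hoxa3, which patterns the thymus and parathyroid, at 0.98, 3.35 and 1.13 TPM, and Hoxa9, which acts in blood progenitors, at 1.04, 3.28 and 0.72 TPM. Hoxa2, which patterns the second pharyngeal arch, was at 0.78, 1.70 and 0.21 TPM. Hoxa6 was at 0.28 and 1.03 TPM in Sham and Cas+CO and listed at 0 in Cas+T.

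Cluster c (chromosome 15, plus strand) was the lowest, and its leading member changed with the library. Hoxc5 led in Sham, with 1.38 TPM against 1.66 TPM in Cas+CO and 1.09 TPM in Cas+T. Hoxc6, a thoracic patterning gene, led in Cas+CO, with 0.61, 4.12 and 0.81 TPM in Sham, Cas+CO and Cas+T. Hoxc8, also thoracic, led in Cas+T, with 1.07, 3.14 and 2.33 TPM. Hoxc4, Hoxc9 and Hoxc10 stayed under 1 TPM in every library. With Hoxb1, Hoxd11 and Hoxd13 they make the 6 members that were not compared.

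Across the 27 members compared for Cas+CO over Sham, 15 were higher as deposited (55.6%, beside 37.5% of all genes) and 0 were lower (6.49% of all genes). Relative to all genes 3 were higher, namely Hoxb3, Hoxd3 and Hoxd4 (11.1%, the same as the 11.1% of all genes), and 1 was lower, Hoxa4 (beside 13.4%). The median log2 ratio was 1.05, or 0.29 relative to all genes. The count as deposited is not read as a result about the Hox genes. Of the 27 members, 6 reached 1 TPM only in Cas+CO and so were higher there by the way they were chosen, among them Hoxa3, Hoxa6 and Hoxc6. Hoxa4 reached 1 TPM only in Sham, so its lower direction was set in the same way. The 3 relatively higher members all share exonic bases with another gene. Of the 17 members that share none, Hoxb1, Hoxc4, Hoxc9 and Hoxd13 were too low to be compared. Among the rest 0 were higher relative to all genes, beside 11.1% of all genes. Whether the overlap bears on the calls was not tested.

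**Figure D3:**
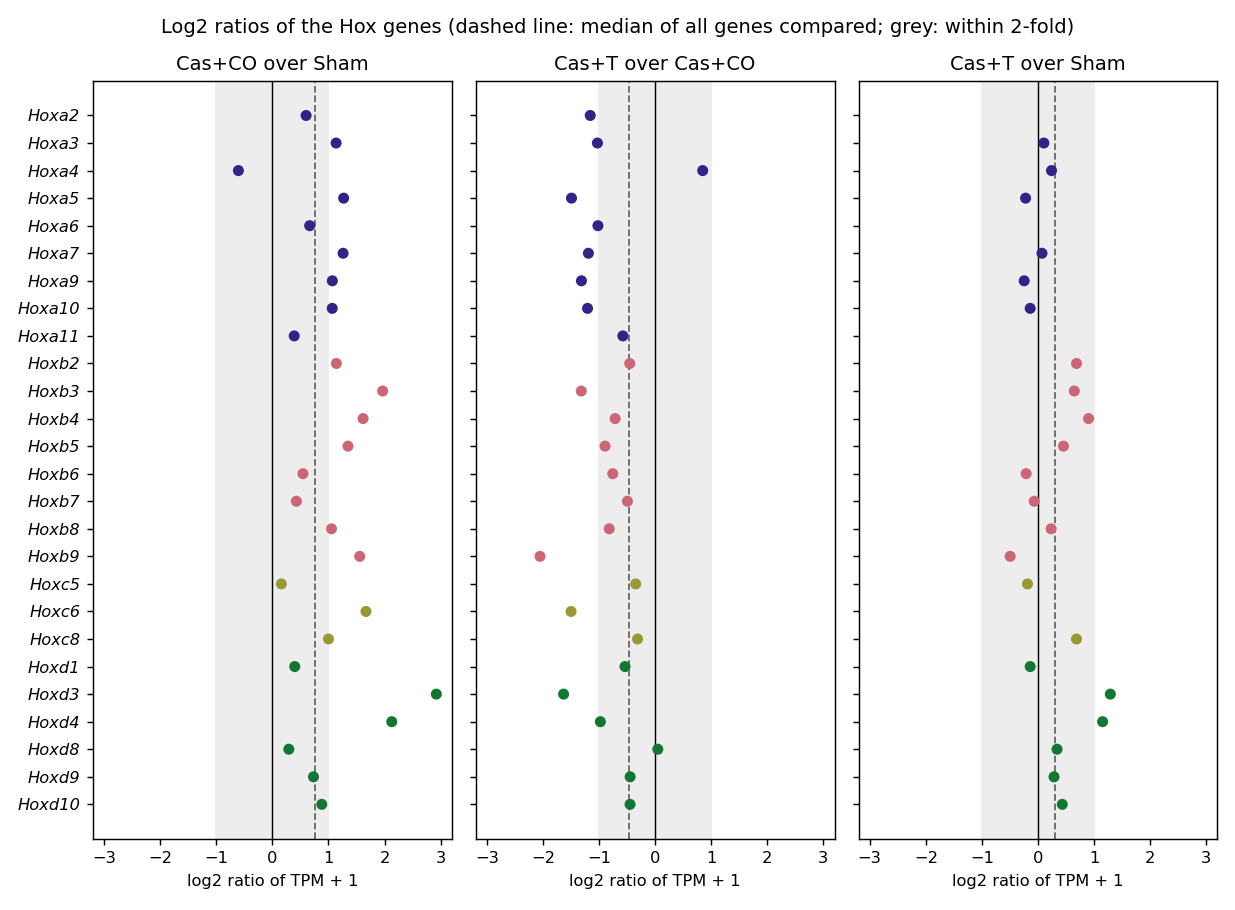
Log2 ratios of TPM + 1, as deposited, for the Hox genes described, 1 panel per comparison and 1 point per gene, with colours for clusters, a dashed line at the median of all genes and grey for ratios within 2-fold. For Cas+CO over Sham, Hoxd3 (2.92), Hoxd4 (2.13) and Hoxb3 (1.97) lie farthest right and Hoxa4 (-0.61) is the point left of 0.

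For Cas+T over Cas+CO, 27 members were compared. As deposited 11 were lower (40.7%, beside 23.4% of all genes) and 0 higher (6.91% of all genes), with a median log2 ratio of -0.82. Relative to all genes 4 were lower, namely Hoxa5, Hoxb9, Hoxc6 and Hoxd3 (beside 11.8%), and 1 was higher, Hoxa4 (beside 11.4%), with a median of -0.36. Here 8 members reached the minimum only in Cas+CO, among them Hoxa5 and Hoxc6, and Hoxa4 reached it only in Cas+T. The direction of these members as deposited was thus set by the way they were chosen.

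For Cas+T over Sham, 22 members were compared. Hoxd3 and Hoxd4 were higher as deposited (2 of 22, beside 5.2% of all genes) and 0 were lower (2.76%). Relative to all genes 0 were higher (2.04%) and 0 lower (4.41%). The median log2 ratio was 0.24 as deposited and -0.06 relative to all genes, so its direction turned with the scale.

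The 12 members with a mean of at least 5 TPM over the libraries, Hoxb2 to Hoxb9, Hoxd3, Hoxd4, Hoxd8 and Hoxd9, were also counted apart, against all genes above the same mean. For Cas+CO over Sham 8 of the 12 were higher as deposited (33.5% of all such genes) and 0 lower (5.47%), while relative to all genes 3 were higher (9.65%) and 0 lower (12.2%). The 4 that were not higher were Hoxb6, Hoxb7, Hoxd8 and Hoxd9. Between Cas+T and Cas+CO, Hoxb3, Hoxb9 and Hoxd3 were lower as deposited (16.4%) and 0 were higher (6.22%); relative to all genes Hoxb9 and Hoxd3 were lower (8.24%) and 0 higher (10.6%). Hoxd3 and Hoxd4 were higher for Cas+T over Sham (4.15%) and 0 lower (1.45%), and relative to all genes 0 were higher (1.64%) and 0 lower (2.58%). Their median log2 ratios were 1.24, -0.79 and 0.40 as deposited, beside 0.69, -0.38 and 0.31 for all such genes.

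Of the 27 members that reached 1 TPM in any library, 25 had their highest level in Cas+CO (92.6%), where 72.1% of all 16428 such genes had theirs. After the libraries were scaled to the same median, 18 members (66.7%) were highest in Cas+CO, beside 45.3% of all genes. The 2 that were highest in Cas+T as deposited were Hoxa4 and Hoxd8.

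By paralog number the composition of the Hox transcripts differed between libraries, and shares within the Hox genes do not depend on how libraries are scaled. Paralog groups 1 to 4 held 11.6%, 24.8% and 18.8% of Hox TPM in Sham, Cas+CO and Cas+T. Groups 5 to 8 held 79.4%, 63.3% and 74.0%, and groups 9 to 13 held 9.07%, 11.8% and 7.22%. Group 3 took 2.54%, 8.10% and 4.22%, and group 4 took 5.66%, 12.8% and 10.3%. Group 8, which is mostly Hoxd8 and Hoxb8, took 46.6%, 36.6% and 48.3%. The share of groups 1 to 4 rests on members that share exonic bases with another gene: over the 17 members that share none, it was 1.47%, 2.79% and 2.36%.

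**Figure D4:**
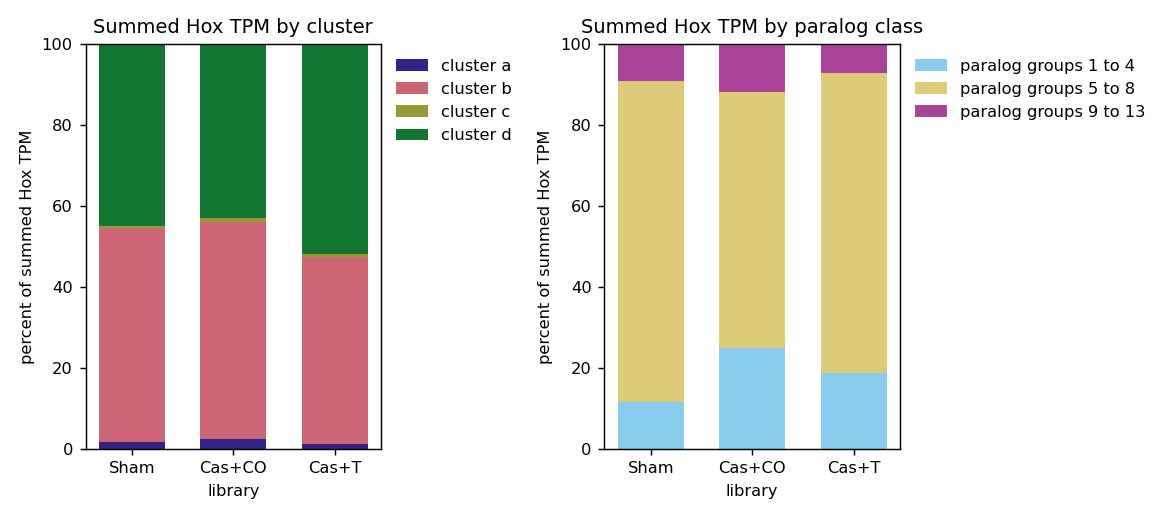
Share of summed Hox TPM in percent held by each cluster and by paralog groups 1 to 4, 5 to 8 and 9 to 13 in Sham, Cas+CO and Cas+T. Groups 1 to 4 hold 11.6%, 24.8% and 18.8%.

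**Figure D5:**
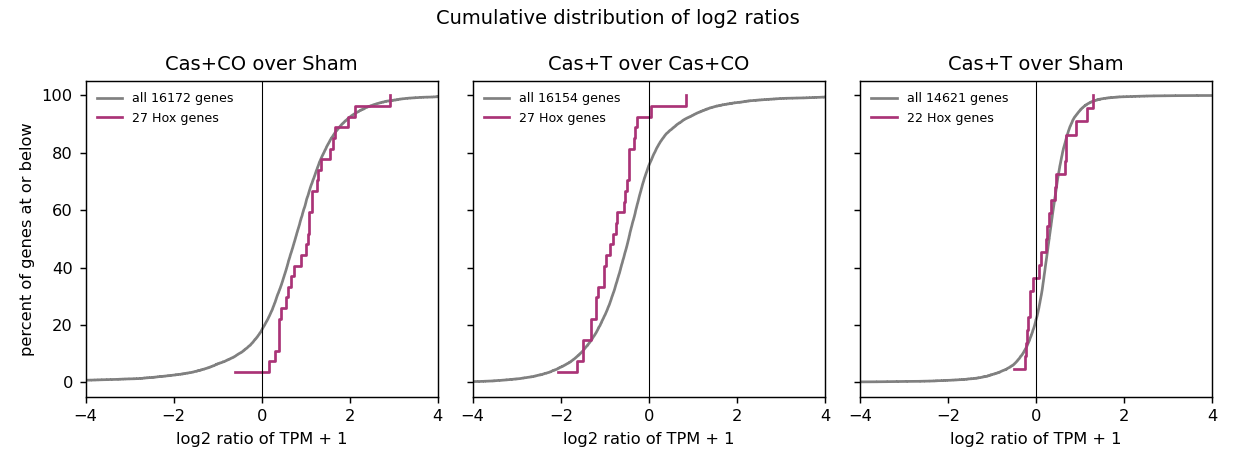
Cumulative distribution of log2 ratios, as deposited, for the Hox genes and all genes compared, by comparison. Medians of Hox genes are 1.05, -0.82 and 0.24, beside 0.76, -0.46 and 0.30 for all genes.

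Cell type markers differed between the same libraries, and in bulk tissue fewer cells of a type and less RNA per cell cannot be told apart. The 11 principal cell markers summed to 108585 TPM in Sham, 17349 TPM in Cas+CO and 77357 TPM in Cas+T. For Cas+CO over Sham 10 of the 11 were lower, beside 6.49% of all genes. Spink8 was not, at 11874, 10115 and 9607 TPM, and it held most of the Cas+CO sum. Lcn8 and Lcn9 were listed at 0 in Cas+CO and Lcn9 in Cas+T. The 9 initial segment markers, which include those genes, summed to 7212, 44.2 and 137 TPM. Most of the Cas+T sum was Ggt1, at 82.7 TPM in Sham, 12.7 TPM in Cas+CO and 104.3 TPM in Cas+T. For Cas+T over Sham 7 of the 9 were lower, beside 2.76% of all genes. General epithelial markers summed to 1929, 2352 and 2447 TPM over 9 genes. All 12 fibroblast and matrix markers were present in each library and summed to 201, 1779 and 219 TPM. For Cas+CO over Sham 11 of the 12 were higher, beside 37.5% of all genes. Pdgfra went against them, at 18.9, 11.0 and 3.07 TPM. Adipocyte markers (11) summed to 49.6, 2415 and 135 TPM, macrophage and myeloid markers (10) to 88.3, 726.5 and 139 TPM, and red blood cell markers (5) to 82.9, 2731 and 45.2 TPM. B and plasma cell markers (8) summed to 6.57, 429.6 and 12.5 TPM, with 2 of them listed at 0 in Sham. Smooth muscle markers (11) summed to 1114, 723 and 395 TPM, of which Actg2 held 465, 32.7 and 47.7 TPM and the other 10 held 649, 690.0 and 347 TPM. Their median log2 ratio for Cas+CO over Sham was 0.26, or -0.51 relative to all genes. Endothelial markers (10) summed to 36.5, 102 and 33.3 TPM. Most of the Sham sum was Egfl7, which was lower in Cas+CO than in Sham, at 24.05, 17.5 and 16.9 TPM. For Cas+CO over Sham 9 of the 10 were higher, beside 37.5% of all genes. Most of these 9 passed the 1 TPM minimum through Cas+CO alone, which set their direction. Fibroblasts express Hox genes in many tissues, and the part of these cell types in the Hox levels was not tested.

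The Pbx, Meis and Prep genes of the TALE homeobox class encode cofactors that bind DNA with Hox proteins. They were listed with the Tgif genes of the same class. This list gave 7 higher and 1 lower of 11 compared for Cas+CO over Sham (37.5% and 6.49% of all genes). Relative to all genes 3 were higher and 2 lower (11.1% and 13.4%). The median log2 ratio of the list was 1.12, or 0.35 relative. Between Cas+T and Cas+CO, 1 was higher in Cas+T and 5 lower (6.91% and 23.4% of all genes). Meis2 was at 1.77, 9.01 and 2.09 TPM in Sham, Cas+CO and Cas+T. Tgif1, a repressor of retinoid and TGF-beta signalling, was at 41.0, 192 and 66.8 TPM. Pbx4 was lowest in Cas+CO and highest in Cas+T, at 4.26, 1.31 and 6.35 TPM.

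Chromatin regulators of the Hox clusters gave 17 higher and 0 lower of 27 compared for Cas+CO over Sham (37.5% and 6.49% of all genes). Relative to all genes 3 were higher, at the share of all genes (11.1%), and 0 were lower (13.4%). Their median log2 ratio was 1.21, or 0.45 relative. In Cas+T, 0 were higher than in Cas+CO and 6 were lower (6.91% and 23.4% of all genes). Ezh1, a methyltransferase of the Polycomb complex that silences Hox genes, was at 14.3, 73.3 and 21.3 TPM, and its paralog Ezh2 at 5.83, 21.6 and 13.8 TPM. The Trithorax-class methyltransferases, which keep Hox genes active, had the same order: Kmt2a was at 2.50, 11.5 and 3.40 TPM and Kmt2d at 5.29, 26.9 and 9.45 TPM. These 4 were named for having the largest ratios of the list, so their direction does not describe the list.

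Retinoic acid induces low-numbered Hox genes in embryos. Of 16 genes of its pathway compared for Cas+CO over Sham, 12 were higher and 2 lower (37.5% and 6.49% of all genes), or 7 and 2 relative to all genes (11.1% and 13.4%). For Cas+T over Cas+CO 2 were higher and 9 lower (6.91% and 23.4%). The summed level of the list's 20 genes went the other way, at 1441, 717 and 1316 TPM in Sham, Cas+CO and Cas+T. Most of it was Aldh1a1, an enzyme that makes retinoic acid, at 1299.9, 277 and 1111 TPM, chosen after its values were seen; the other 19 genes summed to 141, 440.4 and 205.5 TPM. Aldh1a3, another enzyme that makes retinoic acid, was at 0.60 TPM in Sham, 17.8 TPM in Cas+CO and 0.73 TPM in Cas+T. Rbp4, the retinol carrier of blood, was at 0.26, 20.9 and 1.71 TPM, and Stra6, its receptor, at 1.97, 41.1 and 7.86 TPM. For Cas+CO over Sham, Aldh1a3 and Rbp4 passed the minimum through Cas+CO alone, which set their direction. Crabp2, which carries retinoic acid to the nucleus, was lowest in Cas+CO and highest in Cas+T, at 47.4, 4.16 and 68.8 TPM. No measurement here links these genes to the Hox levels.

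Of 18 other homeobox and duct transcription factors compared for Cas+CO over Sham, 7 were higher and 2 lower (37.5% and 6.49% of all genes), or 2 and 2 relative to all genes (11.1% and 13.4%). For Cas+T over Cas+CO 1 was higher and 4 lower (6.91% and 23.4%). Some of the genes called in these comparisons passed the minimum through 1 library alone, which set their direction. Gata3, a duct morphogenesis factor, was at 13.3, 43.4 and 26.8 TPM in Sham, Cas+CO and Cas+T. Tshz2 was at 14.4, 29.0 and 9.25 TPM, below Sham in Cas+T like Hoxb9.

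The genes that flank the clusters on their chromosomes gave 5 higher and 0 lower of 16 compared for Cas+CO over Sham (37.5% and 6.49% of all genes), or 0 and 1 relative to all genes (11.1% and 13.4%), with a median log2 ratio of 0.80, beside 1.05 for the Hox genes and 0.76 for all genes. In Cas+T, 0 were higher than in Cas+CO and 2 lower (6.91% and 23.4%). Some of the 5 higher, and the 2 lower, passed the minimum through Cas+CO alone, which set their direction. Calcoco1 was at 20.8, 52.6 and 26.5 TPM, Smug1, a DNA repair glycosylase, at 4.89, 11.0 and 9.80 TPM, Hnrnpa1, an RNA-binding protein gene, at 151, 304 and 245 TPM, and Snx11 at 18.5, 37.6 and 27.6 TPM. Antisense and long noncoding genes within the clusters gave 1 higher and 0 lower of 7 compared for Cas+CO over Sham (37.5% and 6.49% of all genes), or 0 and 2 relative to all genes (11.1% and 13.4%). Of 6 compared for Cas+T over Cas+CO, 0 were higher and 2 lower (6.91% and 23.4%). Hoxa11os, the 1 higher and also 1 of the 2 lower, passed the minimum through Cas+CO alone, which set its direction. Besides Hoxd3os1, Hoxb5os passed 5 TPM, with 3.61, 5.66 and 1.16 TPM.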

How the data were processed

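RNA was extracted from the epididymis with a column kit and made into libraries by standard Illumina methods, per the labels' protocols. Not given in the sources used here are the aligner, annotation, build and use of strand. Values were deposited by the authors on a log2 scale with no unit named. They were read as log2(TPM + 1), because the back-transformed values are multiples of 0.01 and sum to 1000000 in each library. Rows sharing a symbol were summed. Of the 23538 rows, 937 have no symbol and 25 carry a date in its place, and, apart from Hox genes, these were named where possible from GENCODE M21 (GRCm38), which holds 23518 of the identifiers and gave all gene coordinates.

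Log2 ratios used a pseudocount of 1 TPM, a minimum of 1 TPM in either library and a 2-fold limit. Every Hox gene entered the counts, medians and sums, but 1 of them and some list genes that the rule names are not reported here by name. At most 4 genes per pathway list with the largest ratios at 5 TPM or more are named. Gm28230, Hoxb3os and Hoxa11os were added for their shared exons. Aldh1a1, Actg2, Spata18, Sox9, Akr1b7, Ggt1, Egfl7, Pdgfra and Spink8 were added after their values were seen. The members and gene lists were chosen with earlier results of these data known. Alternatives were another pseudocount, minimum, scaling, limit and row rule, and 2 added after the data were seen. Calculations used Python 3.11.15, NumPy 2.4.6 and pandas 2.3.3, with figures from matplotlib 3.10.9. Only the code for log2 ratios was tested on simulated data, with changes placed on genes well above the 1 TPM minimum.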

Additional observations from a re-analysis of the deposited data

How the results depend on the processing

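With 1 library per group, leaving out a replicate was not possible and none of the ratios has a test. No paired analysis was possible because each group has 1 library and the labels give no replicate numbers. TPM keeps no depth, so values near 1 TPM, which most a and c members have, cannot be given an error. Counts below are members 2-fold apart unless said otherwise, and "relative" means against the median of all genes. A count or share not given for a setting stayed within 1.5 times of its main value or was unchanged. The share of all genes called under each alternative was not counted. The counts below therefore show how the calls move with the setting and are not read as results about the Hox genes.

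With a 1.5-fold limit, Cas+CO over Sham had 19 higher members and 1 lower, and 7 higher and 2 lower relative. For Cas+T over Cas+CO there were 1 higher, and 9 lower relative. Cas+T over Sham had 6 higher, and 3 higher and 1 lower relative. With a 4-fold limit, Cas+CO over Sham had 2 higher, and 1 higher and 0 lower relative, and Cas+T over Cas+CO had 1 lower, and 0 higher and 0 lower relative, and Cas+T over Sham had 0 higher. The stricter or looser limit itself sets these counts.

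With libraries scaled to the same median (log2 factors of -0.80 for Cas+CO and -0.35 for Cas+T), Cas+CO over Sham had 4 higher members as scaled, 0 lower relative, and a median log2 ratio of 0.44. Cas+T over Cas+CO had 4 lower, and 0 higher relative, and Cas+T over Sham had 0 higher. The total was also taken without the 50 most abundant genes of each library. Cas+CO over Sham then had 12 higher and 1 lower, and 2 lower relative. Cas+T over Cas+CO had 1 higher, and 7 lower relative. Cas+T over Sham had 1 higher, and 1 higher and 1 lower relative. A total without adipocyte, red blood cell, sperm, mitochondrial and ribosomal protein genes gave 1 higher relative for Cas+T over Sham.

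With a pseudocount of 0.1 TPM, Cas+CO over Sham had 18 higher and 1 lower. Cas+T over Cas+CO had 1 higher, and 8 lower relative, and Cas+T over Sham had 1 higher relative. With no minimum, Cas+CO over Sham had 6 higher and 2 lower relative, and Cas+T over Sham 1 higher relative. With a minimum of 5 TPM, Cas+CO over Sham had 9 higher as deposited, and 0 lower relative. Cas+T over Cas+CO had 4 lower, and 0 higher and 2 lower relative. The highest row per symbol gave 1 higher relative for Cas+T over Sham.

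The remaining alternatives were chosen after the data were seen, except the share without the most abundant Hox gene. With Hoxd4 taken from its GENCODE M21 identifier alone, its log2 ratio for Cas+T over Sham reversed to -0.19, and 1 member was higher in that comparison. Over the members that share no exonic bases, Cas+CO over Sham had 7 higher, and 0 higher and 0 lower relative. Cas+T over Cas+CO had 5 lower, and 0 higher relative, and Cas+T over Sham had 0 higher. Fewer members were counted there. Over the same members, cluster a held 0.75%, 1.39% and 0.526% of Hox TPM in Sham, Cas+CO and Cas+T, cluster c 0.345% in Sham, and paralog groups 1 to 4 held 1.47%, 2.79% and 2.36%.

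Without the most abundant Hox gene, cluster d held 15.1%, 25.6% and 23.7% in Sham, Cas+CO and Cas+T. In Sham and Cas+T, cluster a held 2.63% and 2.01%, cluster b 81.5% and 73.2%, cluster c 0.815% and 1.05%, paralog groups 1 to 4 17.8% and 29.7%, and groups 9 to 13 13.98% and 11.4%. Except where the construction of the alternative is given, the cause was not tested.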

Other observations

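GENCODE M21 names 39 mouse Hox genes. Beside the 33 described, 2 have a row with no deposited symbol: Hoxa13, which patterns the most distal tract, was listed at 0 in Sham and Cas+T and at 0.49 TPM in Cas+CO, and Hoxc11 was listed at 0 in Sham and Cas+T and at 0.08 TPM in Cas+CO. The other 4 were not analysed here.

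Sperm and germ cell markers (10) summed to 80.4 TPM in Sham, 7.85 TPM in Cas+CO and 0.39 TPM in Cas+T, with 8 of them listed at 0 in each of the castrated libraries. Spata18 went against the others, at 1.37, 7.56 and 0.27 TPM, and the other 9 summed to 79.0, 0.29 and 0.12 TPM. Clear cell markers (7) summed to 97.7, 394 and 169 TPM and basal cell markers (5) to 105, 269.6 and 152 TPM. Leydig and Sertoli cell markers (6 of 9 with a row) summed to 10.2, 27.3 and 17.1 TPM, of which Sox9 held 5.26, 21.1 and 6.86 TPM. The other 5 of them summed to 4.94, 6.19 and 10.3 TPM, highest in Cas+T. Seminal vesicle, prostate and vas deferens markers (6 of 9 with a row) summed to 4527, 1675 and 3554 TPM. Nearly all of that was Akr1b7, at 4520.2, 1673 and 3547 TPM, and the other 5 summed to 6.68, 2.58 and 6.62 TPM. Their part in the Hox levels was not tested.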
